A study of Mus musculus with 9 samples.

Results

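The 39 genes described here encode parts of the lysosome and of the autophagy pathway: 4 lysosome membrane proteins, 6 lysosomal proteases, 5 glycosidases, 2 genes of sphingolipid breakdown, 5 components of the proton pump V-ATPase, 3 transcription factors of the MiT/TFE family, 7 genes of autophagy initiation, 3 of LC3 conjugation and 4 of the ATG8 family. They were taken by name from a list, which was drawn up with earlier results of these data known, and no measured value entered the rule. All 39 were found among the 24421 genes of the count table. All 39 also passed the filter on low counts, which left 12575 genes for testing.

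RNA-seq was performed on 4T1 cells, an established BALB/c mouse mammary carcinoma line, cultured for 5 days in medium with 10% FBS. The 9 libraries fell into 3 groups of 3. The first group was 3D spheroids on soft agar without added palmitate, which received the albumin and ethanol vehicle. The second was 3D spheroids with 75 µM palmitate bound to albumin, and the third was 2D monolayers with the same palmitate addition. All 3 groups came from this single cell line, and the labels name no genetic modification. 2D cultures without added palmitate were not analysed here, so the difference between 3D and 2D is described only with palmitate and the effect of palmitate only in 3D. Both comparisons use the same 3 libraries of 3D cultures with palmitate, and their values are therefore not independent of each other.

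Lysosomes are acidic compartments in which proteases, glycosidases and lipases break down material that arrives from endocytosis, from the secretory route and from autophagy. The V-ATPase pumps protons into the lumen, and glycosylated membrane proteins such as LAMP1 and LAMP2 line the membrane. In macroautophagy the ULK1 complex starts a membrane sheet, WIPI proteins and the BECN1 complex extend it, and a conjugation system with ATG5, ATG7 and ATG16L1 attaches the ubiquitin-like ATG8 proteins (LC3 and GABARAP) to it. TFEB, TFE3 and MITF are basic helix-loop-helix factors that bind the CLEAR element, a palindrome found near many lysosomal genes.

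The libraries held between 6595514 and 31177756 counts, the smallest being replicate 3 of the 3D cultures with palmitate. The ribosomal RNA precursor Rn45s took 1.77% to 5.38% of them. Over the 39 genes, counts per gene and library ranged from 37 to 106433. All 8 epithelial markers fixed for 4T1 cells were detected in every library. The 12 macrophage and leukocyte markers summed to 35.9 to 40.5 CPM (counts scaled to library size by TMM) in 2D, 14.0 to 14.7 CPM in 3D without palmitate and 17.9 to 20.3 CPM in 3D with palmitate. Most of this was Cd68, itself a lysosome membrane gene, and Cd14, whereas the defining markers Adgre1 and Tyrobp were at 0 in all 9 libraries. The 8 fibroblast markers summed to 33.2 to 34.6 CPM in 2D and 91.8 to 111 CPM in 3D, nearly all of it Pdgfra, with Lum and Col3a1 at or near 0. This sum does not stand for the list. Of its 3 genes that could be tested, 1 was higher and 2 were lower in 3D than in 2D, both with palmitate. The 6 endothelial markers summed to at most 0.579 CPM. The part of these marker changes in the results below was not tested. Because the RNA was extracted in bulk, fewer cells of a type and less RNA per cell cannot be told apart. The labels do not state that the 3 libraries of a group came from separate cultures, so p-values measure the spread between these libraries, which may be technical.

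In 3D compared with 2D cultures, both with palmitate, most lysosome and autophagy genes were higher. Of the 39 genes, 26 rose and 7 fell at an adjusted p under 0.05 (edgeR quasi-likelihood test with Benjamini-Hochberg adjustment over all genes tested), and 6 passed in neither direction. Among all genes tested, 34.5% rose and 33.9% fell in this comparison, so a call alone was common. The groups did not overlap for 32 of the 39 genes, against 69.4% of all genes tested. The median log2 fold change of the 39 genes was 0.38 (all genes tested, 0.0083), with a range from -0.71 for Cd63 to 2.00 for Mitf. Together the 39 genes took 0.556% to 0.580% of the counts in 2D libraries and 0.864% to 0.974% in 3D libraries. Much of this share was Ctsl. When an absolute log2 fold change of at least 0.5 was also required, 15 genes rose and 2 fell. The share of all genes tested that passed both thresholds is not given here, so this split has no background beside it.

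**Figure D1:**
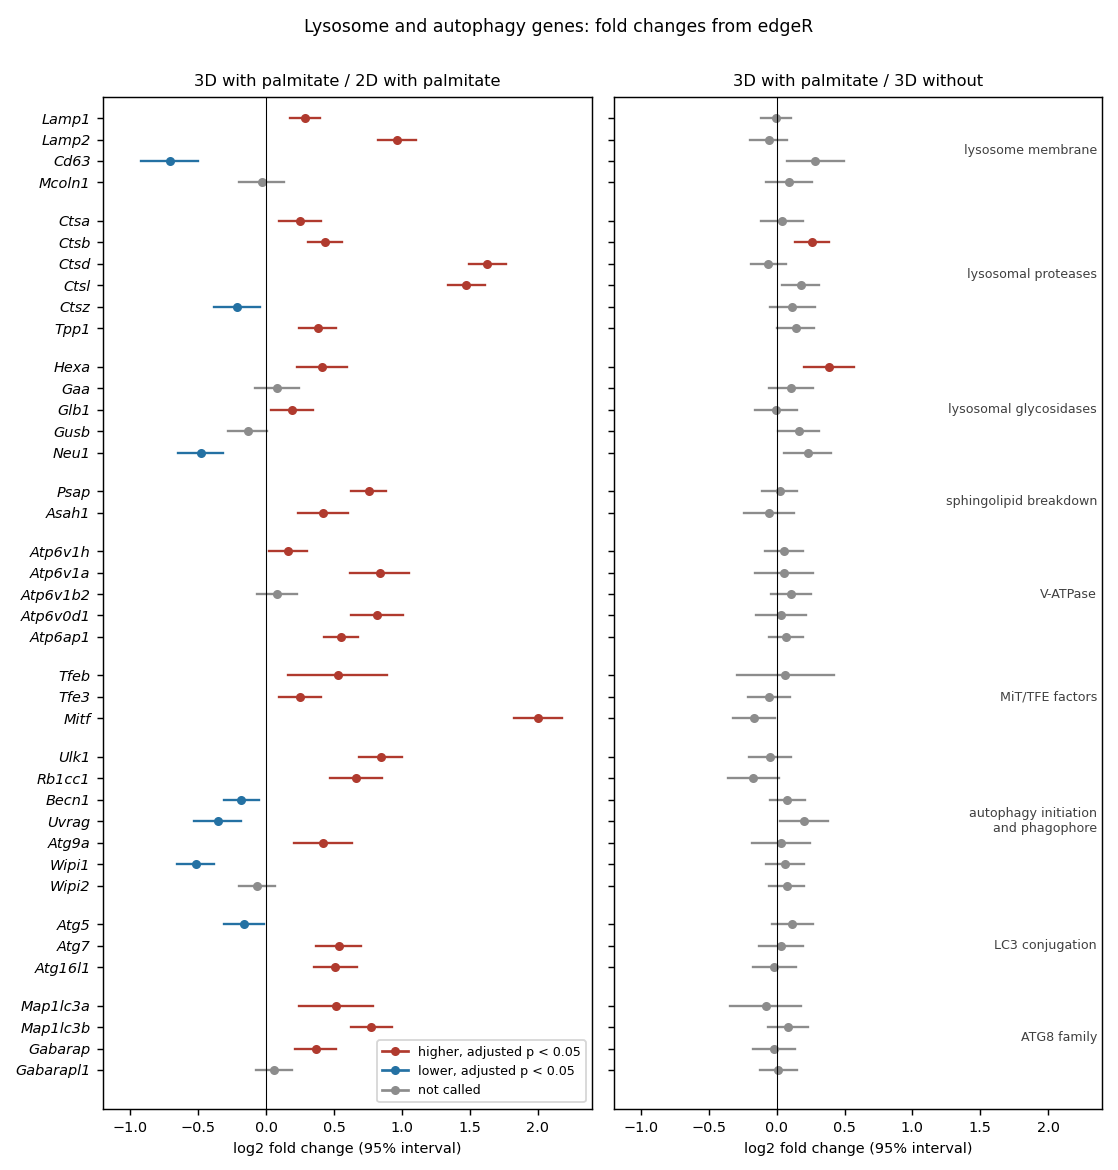
Log2 fold changes of the 39 genes (x axis, edgeR) with their 95% intervals, grouped by role, for 3D against 2D with palmitate (left) and for 3D with against without palmitate (right). Red and blue mark genes past an adjusted p of 0.05; on the left 26 are red and 7 blue, and on the right only Ctsb and Hexa are red.

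The 3 MiT/TFE factors rose in 3D by very different amounts (median log2 fold change 0.53), though Tfe3 changed sign in 1 alternative fit. Mitf (chr6:97807052-98021349 of GRCm38, plus strand) is the member best known as the master factor of melanocytes. Its levels were 44.2, 49.1 and 48.7 CPM in 3D with palmitate, 53.5, 51.1 and 53.6 CPM in 3D without it, and 12.1, 12.4 and 10.7 CPM in 2D with palmitate. Every 3D library was thus far above every 2D library. Between 3D and 2D the log2 fold change was 2.00 (standard error, SE, 0.0825, adjusted p = 4.87e-11, edgeR), a 4.01-fold difference and the highest of the 39 genes. Ordered by level per kilobase of exon, it lay in place 31 of 39 in 3D with palmitate and in place 38 in 2D.

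Tfeb (chr17:47737030-47792419, plus strand), the factor most studied as a regulator of lysosomal genes, had the lowest level per kilobase of exon of the 39 genes in all 3 groups. Its levels were 10.2, 11.0 and 5.67 CPM in 3D with palmitate, 10.4, 8.46 and 8.41 CPM in 3D without it, and 5.87, 6.82 and 6.86 CPM in 2D. Replicate 3 of the 3D cultures with palmitate, which held 37 counts of Tfeb, lay below all 3 of the 2D libraries, and the groups overlapped. The log2 fold change of 0.53 (SE 0.170, adjusted p = 0.0129, edgeR) missed the threshold when replicate 1 (adjusted p = 0.0557) or 2 (0.0741) of the 3D cultures with palmitate was omitted and with the Rn45s share as a covariate (0.0595). Tfe3 (chrX:7762560-7775202, plus strand) measured 75.8, 69.5 and 63.7 CPM in 3D with palmitate, 69.9, 77.1 and 72.6 CPM in 3D without it, and 56.4, 60.8 and 59.97 CPM in 2D. The groups were adjacent without overlap, at a log2 fold change of 0.25 (SE 0.0732, adjusted p = 0.00768, edgeR). After removal of the trend with GC content and transcript length, Tfe3 stood at -0.11 (adjusted p = 0.136).

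**Figure D2:**
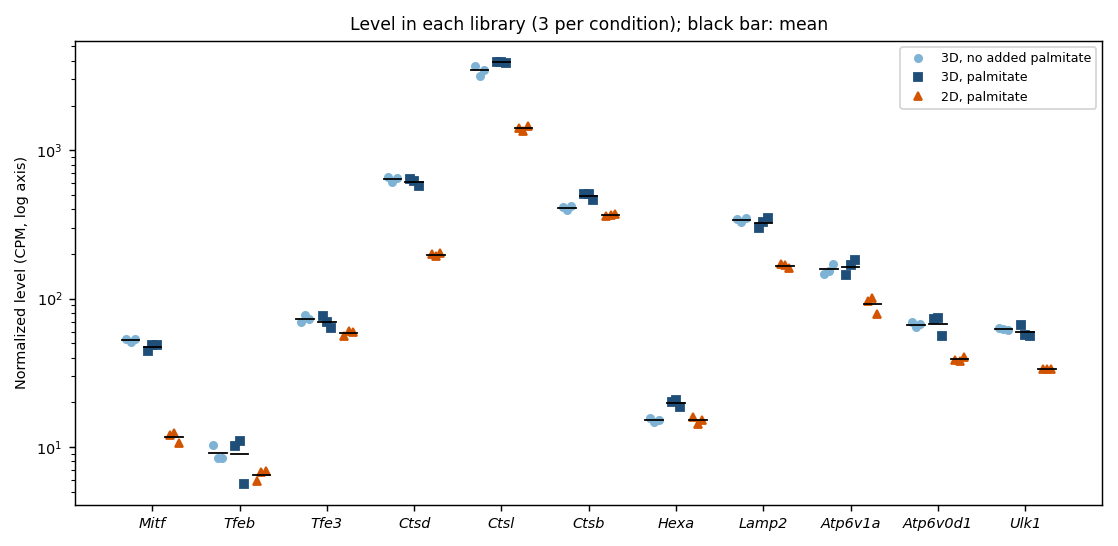
Normalized level in CPM (y axis, log scale) of 11 lysosome and autophagy genes in each of the 9 libraries, with a black bar for the mean of 3 libraries. For Mitf, the 2D libraries lie between 10.7 and 12.4 CPM and all 3D libraries at or above 44.2 CPM, whereas for Tfeb 1 library of 3D with palmitate lies at 5.67 CPM, below the 2D libraries.

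The promoters of several of the genes carry the letters that MiT/TFE factors bind, and the stretches that hold them are shown because the genes differ widely in how they moved. The core of the CLEAR element, TCACGTGA, and the shorter E-box CACGTG, which lies inside it, both read the same on either strand. They were searched in RefSeq windows from 250 bases before to 50 bases after each start site (GRCm38.p6). Windows were found for 31 of the 39 genes. In the following stretches, read 5′ to 3′ along the gene, capitals mark the matches.
Ctsd, chr7:142387904-142387941, minus strand: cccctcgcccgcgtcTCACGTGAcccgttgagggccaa
Atp6v1a, chr16:44139369-44139406, minus strand: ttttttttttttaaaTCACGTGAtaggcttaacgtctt
Atp6v0d1, chr8:105566046-105566083, minus strand: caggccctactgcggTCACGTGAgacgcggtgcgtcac
Ctsa, chr2:164833745-164833799, plus strand: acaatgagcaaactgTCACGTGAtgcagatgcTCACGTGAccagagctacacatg
Mcoln1, chr8:3500433-3500495, plus strand: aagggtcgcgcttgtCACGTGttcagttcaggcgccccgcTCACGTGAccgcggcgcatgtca
Lamp1, chr8:13159085-13159166, plus strand: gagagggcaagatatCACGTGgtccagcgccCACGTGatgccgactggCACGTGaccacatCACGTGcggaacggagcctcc

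The first 5 of these genes were the only ones among the 31 with the whole CLEAR core, a share of 16.1% against 2.17% of the 9536 tested genes with a window and 1.12% of all 27025 genes in the RefSeq table. The stretch of Ctsa, from the second of its 2 windows, held the core at 2 positions, and that of Lamp1 held 4 E-boxes. An E-box of either kind was present in 11 of the 31 genes (35.5%), against 11.8% of tested genes. Of the 5 genes with the CLEAR core, Ctsd, Atp6v1a, Atp6v0d1 and Ctsa rose in 3D and Mcoln1 passed in neither direction, with a median log2 fold change of 0.82. Over all 11 genes with an E-box, the CLEAR core included, 8 rose, 1 fell and 2 passed in neither direction, and the median was 0.29. Of the 20 genes whose windows held no E-box, 12 rose and 5 fell, with a median log2 fold change of 0.37. The highest riser, Mitf, belonged to the latter. These matches describe the letters only, and no difference between the classes was tested. Because the CLEAR element is known from lysosomal genes, its higher share in a list of such genes says nothing about these cultures.

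**Figure D3:**
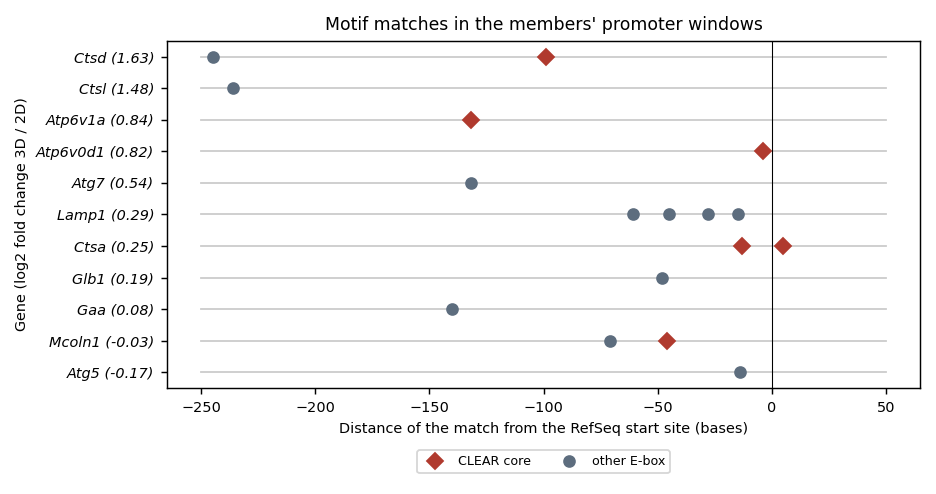
Positions of the motif matches (x axis, bases from the RefSeq start site) in the 11 genes whose promoter window holds an E-box, ordered by their log2 fold change of 3D over 2D, which stands in brackets. Red diamonds mark the CLEAR core, present in 5 genes from Ctsd (1.63) to Mcoln1 (-0.03); grey circles mark other E-boxes, of which Lamp1 has 4.

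Of the 6 lysosomal proteases named at the outset, 5 were higher in 3D and Ctsz was lower, and none of the 6 had overlapping groups. The median log2 fold change of these 6 was 0.41. This does not hold for lysosomal proteases in general. Of the 8 further ones tested, described below, 2 rose and 4 fell, with a median log2 fold change of -0.54. Among all genes tested, 34.5% rose and 33.9% fell. Ctsd (chr7:142375911-142388038, minus strand) encodes cathepsin D, the main aspartic protease of the lysosome. Its levels were 641, 621 and 572 CPM in 3D with palmitate, 658, 610 and 646 CPM in 3D without it, and 199, 193 and 202 CPM in 2D. The log2 fold change of 1.63 (SE 0.0631, adjusted p = 2.48e-11, edgeR) made this a 3.10-fold difference. The annotation places 34.4% of the exon bases of Ctsd within a second gene model on the same strand, Gm49369, which has no row of its own in the count table.

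Ctsl (chr13:64359337-64370890, minus strand) encodes cathepsin L, a cysteine protease that also acts outside the lysosome when secreted. It measured 3917, 3938 and 3871 CPM in 3D with palmitate, 3712, 3163 and 3490 CPM in 3D without it, and 1407, 1355 and 1455 CPM in 2D. All 3D libraries lay far above the 2D libraries, at a log2 fold change of 1.48 (SE 0.0649, adjusted p = 9.46e-11, edgeR). After removal of the GC and length trend it was 1.15. Ctsl shares 26.8% of its exon bases with the gene model Gm47123 on the opposite strand. It also overlaps Gm49230 on the same strand, and neither model has a row of its own in the count table. Among the other proteases, Ctsb (cathepsin B) had a log2 fold change of 0.43 (0.20 to 0.47 over 15 alternative fits). Tpp1, a tripeptidyl peptidase, had 0.38 and Ctsa, the carboxypeptidase that protects NEU1 and beta-galactosidase, 0.25. Ctsa missed the threshold once replicate 1 of the 3D cultures with palmitate was omitted (adjusted p = 0.0504, edgeR). Ctsz, the carboxypeptidase cathepsin Z, fell by 0.22 on the log2 scale (adjusted p = 0.0232), but missed the threshold when replicate 2 (adjusted p = 0.0597) or 3 (0.0545) of the 3D cultures with palmitate or replicate 3 of the 2D cultures (0.102) was omitted, and after removal of the GC and length trend (0.301).

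Of the 4 lysosome membrane genes, 2 were higher and 1 lower, where 34.5% of all genes tested rose and 33.9% fell. Lamp2 (chrX:38401357-38456454, minus strand), whose splice forms include the receptor of chaperone-mediated autophagy, measured 301, 327 and 348 CPM in 3D with palmitate, 343, 326 and 348 CPM in 3D without it, and 171, 168 and 162 CPM in 2D. Its log2 fold change was 0.96 (SE 0.0658, adjusted p = 1.08e-08, edgeR), and the groups were far apart. Lamp1, the most abundant of the membrane genes per kilobase of exon, rose by 0.29 on the log2 scale. Cd63, a tetraspanin of late endosomes and exosomes, was the gene with the largest fall at -0.71 (adjusted p = 1.49e-05). It measured 182, 162 and 129 CPM in 3D with palmitate, 133, 131 and 127 CPM in 3D without it, and 252, 246 and 283 CPM in 2D. Mcoln1, the lysosomal calcium channel TRPML1, gave a log2 fold change of -0.034 with a 95% interval from -0.20 to 0.13. The 4 genes had a median log2 fold change of 0.13.

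Glycosidases moved little and in both directions, with a median log2 fold change of 0.077 for the 5 genes. Hexa, the alpha subunit of beta-hexosaminidase, rose by 0.41 and Glb1, lysosomal beta-galactosidase, by 0.19 on the log2 scale. Glb1 lost its call without replicate 1 (adjusted p = 0.0837, edgeR) or 2 (0.0858) of the 3D cultures with palmitate, without replicate 2 of the 2D cultures (0.133), without the filter on low counts (0.0786) and with the Rn45s share as a covariate (0.0737). The sialidase gene Neu1 fell by 0.48 (adjusted p = 7.03e-05). Gaa, acid alpha-glucosidase, and Gusb, beta-glucuronidase, did not pass, at log2 fold changes of 0.077 (95% interval -0.084 to 0.24) and -0.14 (-0.28 to 0.0093). Both genes of sphingolipid breakdown rose: Psap, which encodes the precursor of the saposins that present sphingolipids to their hydrolases, by 0.76 and Asah1, acid ceramidase, by 0.42, with adjusted p-values of 6.26e-08 and 0.000563 from edgeR.

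Of the 5 V-ATPase genes among the 39, 4 rose in 3D and none fell, with a median log2 fold change of 0.55. Among all genes tested, 34.5% rose and 33.9% fell. Atp6v1a (chr16:44085402-44139705, minus strand), the catalytic A subunit of the cytosolic V1 part, measured 145, 168 and 181 CPM in 3D with palmitate, 146, 155 and 172 CPM in 3D without it, and 96.1, 100 and 78.6 CPM in 2D. Atp6v0d1 (chr8:105524465-105566047, minus strand), which encodes the d subunit that couples the V1 part to the membrane part V0, measured 72.9, 73.8 and 56.2 CPM in 3D with palmitate, 69.7, 63.9 and 67.2 CPM in 3D without it, and 38.5, 37.9 and 40.3 CPM in 2D. Neither gene had overlapping 3D and 2D groups. Their log2 fold changes were 0.84 (SE 0.101, adjusted p = 4.12e-06) and 0.82 (SE 0.0890, adjusted p = 1.39e-06) in edgeR. Both carry a CLEAR core in the promoter stretches shown above.

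The accessory subunit gene Atp6ap1 rose by 0.55 on the log2 scale, and Atp6v1b2, the B subunit that shares the ATP-binding sites with A, did not pass at 0.079 (95% interval -0.066 to 0.22). Atp6v1h, the H subunit that regulates the pump, was called at 0.16 (adjusted p = 0.0416, edgeR), but the call was lost in 12 of 15 alternative fits, among them those without replicate 1 (adjusted p = 0.121) or 2 (0.117) of the 3D cultures with palmitate and without replicate 1 (0.152), 2 (0.0823) or 3 (0.0663) of the 2D cultures.

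Autophagy initiation was the role group that divided most evenly, with 3 genes higher, 3 lower and 1 in neither direction, and its median log2 fold change was -0.067. The 2 members of the ULK1 kinase complex rose. Ulk1 (chr5:110784488-110810097, minus strand), the kinase itself, measured 66.5, 56.7 and 56.1 CPM in 3D with palmitate, 63.9, 62.3 and 61.5 CPM in 3D without it, and 33.5, 33.6 and 33.6 CPM in 2D. The 2D libraries were almost identical and all 3D libraries lay above them, with a log2 fold change of 0.85 (SE 0.0742, adjusted p = 1.46e-07, edgeR). Rb1cc1, the scaffold FIP200 of the same complex, rose by 0.66 on the log2 scale (0.31 to 0.75 over 15 alternative fits). Atg9a, the lipid scramblase whose vesicles seed the membrane, rose by 0.42 (0.24 to 0.51), although the groups of Atg9a overlapped.

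The 3 genes that fell in this group were Becn1, Uvrag and Wipi1. Becn1, the Beclin 1 subunit of a lipid kinase complex, fell by 0.18 on the log2 scale. Uvrag, an alternative subunit of that complex, fell by 0.36. Wipi1, which binds the phosphoinositide that the complex makes, fell by 0.52. Wipi1 measured 41.6, 41.5 and 44.1 CPM in 3D with palmitate, 40.6, 41.8 and 38.8 CPM in 3D without it, and 60.9, 58.9 and 61.7 CPM in 2D. Its paralog Wipi2 did not pass, at -0.067 (95% interval -0.20 to 0.065). With overlapping genes, reads could have been assigned or lost depending on a strand setting that is not given in the sources used here. Becn1 shares 43.9% of its exon bases with Cntd1 on the opposite strand, a gene at 0.582 to 1.11 CPM on average per group. Atg9a shares 31.8% with Gm29253, a gene model on the same strand without a row of its own in the count table. Its overlap with Ankzf1 on the opposite strand is no larger than that.

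LC3 conjugation and the ATG8 family rose with exceptions. Atg7, the E1-like enzyme, rose by 0.54 and Atg16l1, which sets the site of lipidation, by 0.51 on the log2 scale. Atg5, the partner of ATG12, fell by 0.17 (adjusted p = 0.0454, edgeR), a call lost in 10 of 15 alternative fits, among them those without replicate 1 (adjusted p = 0.214) or 2 (0.0657) of the 3D cultures with palmitate and without replicate 1 (0.118), 2 (0.0691) or 3 (0.0584) of the 2D cultures. Of the ATG8 genes, Map1lc3b rose by 0.77, Map1lc3a by 0.51 and Gabarap by 0.36 (log2 fold changes). Gabarapl1 did not pass, at 0.059 (95% interval -0.075 to 0.19), although its groups did not overlap. The median log2 fold changes were 0.51 for the 3 conjugation genes and 0.44 for the 4 ATG8 genes.

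Adding palmitate to 3D cultures moved few of these genes. At an adjusted p under 0.05, 2 of the 39 rose and none fell, where 1.38% of all genes tested rose and 0.811% fell. The groups did not overlap for 9 of the 39 genes, against 18.6% of all genes tested. The median log2 fold change was 0.057 (all genes tested, 0.0077), with a range from -0.17 for Rb1cc1 to 0.39 for Hexa. An unadjusted p under 0.05 was reached by 9 of the 39 genes and by 2170 of all 12575 genes tested. The split of all called genes into 173 higher and 102 lower (62.9% higher) depended on the scaling and became 106 higher and 121 lower (46.7% higher) when counts were scaled by library size alone.

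The 2 genes that rose were a protease and a glycosidase. Ctsb (chr14:63122462-63145923, plus strand) measured 504, 508 and 465 CPM in 3D with palmitate, 415, 394 and 423 CPM in 3D without it, and 359, 364 and 371 CPM in 2D with palmitate. Its log2 fold change with palmitate was 0.26 (SE 0.0591, adjusted p = 0.0361, edgeR), a 1.20-fold difference. Hexa (chr9:59539540-59565109, plus strand) measured 20.2, 20.7 and 18.7 CPM in 3D with palmitate, 15.7, 14.9 and 15.2 CPM in 3D without it, and 16.04, 14.2 and 15.1 CPM in 2D with palmitate. Its log2 fold change with palmitate was 0.39 (SE 0.0869, adjusted p = 0.0358, edgeR), a 1.31-fold difference. For both genes the 3 libraries with palmitate lay above the 3 without it. A two-sided exact permutation test over 3 against 3 libraries gave p = 0.1 for each, the smallest it allows.

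Neither call held when 1 library was left out, except without replicate 3 of the 3D cultures with palmitate. Leaving out replicate 1, 2 or 3 of the 3D cultures without palmitate gave adjusted p-values of 0.115, 0.164 and 0.114 for Ctsb and of 0.0955, 0.126 and 0.130 for Hexa (edgeR). Leaving out replicate 1 or 2 of those with palmitate gave 0.0718 and 0.190 for Ctsb and 0.0911 and 0.167 for Hexa. Without replicate 3 of the 3D cultures with palmitate, the library with the fewest counts, 5 of the 39 genes were called. Among all genes tested, 14.9% were called in that fit. Of the 39, Cd63 and Neu1 joined those that were higher, and Rb1cc1 was lower. Both calls were also lost with library size scaling (adjusted p = 0.0592 and 0.0532), with only the 2 groups compared (0.126 and 0.106) and with the Rn45s share as a covariate (0.246 and 0.281). Rn45s took 1.77% to 2.77% of the counts without palmitate and 1.81% to 5.38% with it, and its part in the result was not tested.

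Of the genes that were not called, Cd63 (log2 fold change 0.29, adjusted p = 0.152), Neu1 (0.23, 0.165) and Ctsl (0.18, 0.165) had the smallest p-values in edgeR. Mitf, at a log2 fold change of -0.17 (95% interval -0.32 to -0.0093, adjusted p = 0.261), was the only one of the 9 genes without overlap whose 3 libraries with palmitate all lay below those without it. The 95% intervals of Tfeb (-0.29 to 0.42) and Tfe3 (-0.21 to 0.099) covered 0. For Ctsd, Lamp2, Ulk1, Atp6v1a and Atp6v0d1, which had large differences between 3D and 2D, log2 fold changes with palmitate lay between -0.061 and 0.057 with adjusted p-values of 0.663 or more. Ctsb shares 12.8% of its exon bases with Fdft1 on the opposite strand, whose log2 fold change with palmitate was -0.10 (adjusted p = 0.501). Hexa shares 12.8% with Tmem202, which had at most 0.183 CPM on average in any group.

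The order of the genes by level per kilobase of exon was led by the same 5 genes in all 3 groups. In 3D with palmitate these were Ctsl at 602 ± 5.27 CPM per kilobase (SD, n = 3), Lamp1 at 275 ± 2.73, Ctsd at 260 ± 14.9, Psap at 253 ± 15.9 and Ctsz at 144 ± 13.8, and the mean of Ctsd lay within 1 of its SDs of both Lamp1 and Psap. In 2D, Lamp1 at 225 ± 1.68 and Ctsl at 217 ± 7.74 CPM per kilobase came first and lay close together, followed by Ctsz at 167 ± 9.98, Psap at 150 ± 3.18 and Ctsd at 84.1 ± 1.93. Ctsd was thus last of the 5 in 2D and level with Lamp1 in 3D. At the other end, Uvrag and Tfeb were in the last 2 places in 3D, and Mitf and Tfeb in 2D. Exon lengths were taken from the union of all annotated exons, so a gene transcribed mostly as a short isoform is understated on this scale.

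**Figure D4:**
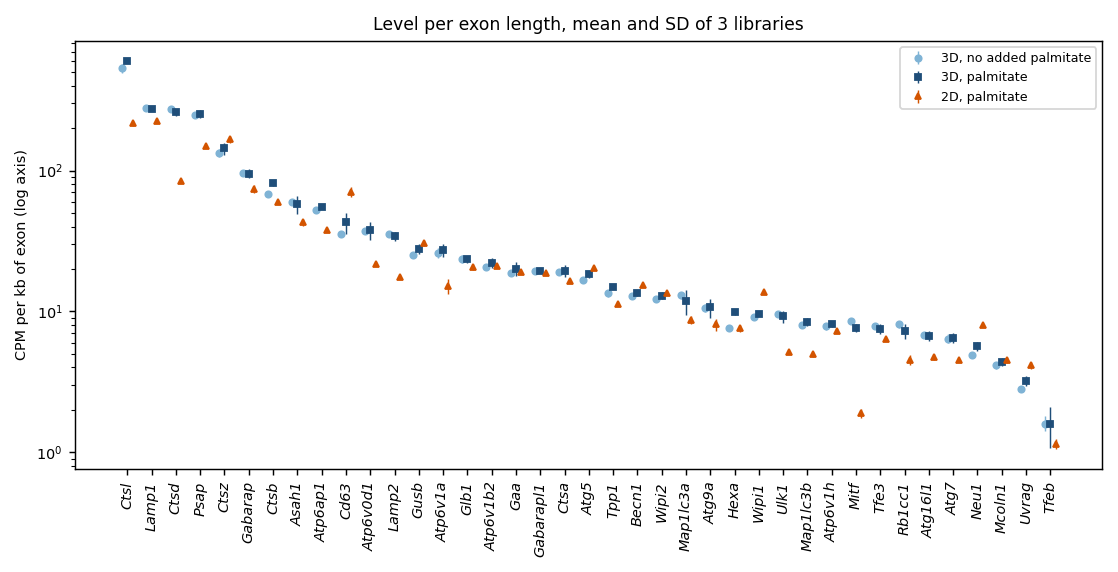
Level per kilobase of exon (y axis, log scale) of the 39 genes, ordered by their level in 3D with palmitate; points are means and bars SD of 3 libraries. Ctsl leads in 3D at 602 CPM per kilobase against 217 in 2D, and Tfeb is lowest in all 3 groups, at 1.58 in 3D with palmitate and 1.15 in 2D.

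Beyond the 39 genes, 208 further genes of the lysosome and autophagy were listed by role, of which 186 could be tested. In 3D compared with 2D, 97 of these rose and 35 fell, where 34.5% of all genes tested rose and 33.9% fell, with a median log2 fold change of 0.23. Of 39 other glycosidases, sulfatases and lipid enzymes, 23 rose and 6 fell (median log2 fold change 0.33), with Arsb, arylsulfatase B (1.47), and Smpd1, acid sphingomyelinase (1.19), having the smallest p among those higher, and Hyal1, a hyaluronidase (-1.09), and Galc, galactosylceramidase (-0.72), among those lower. Of 25 other membrane and transport genes, 17 rose and 4 fell (median 0.40). Tpcn1, a two-pore channel, rose by 1.23 and Scarb2, the receptor that carries glucocerebrosidase to lysosomes, by 0.86, whereas Clcn6, a chloride-proton exchanger, fell by 0.82 and Laptm4b by 0.20 on the log2 scale.

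Of 8 further proteases tested, 2 rose and 4 fell, with a median log2 fold change of -0.54. Ctso (1.78) and Ctsh (0.87) rose, whereas Ctsw, a cathepsin known from cytotoxic lymphocytes (-3.15), and Lgmn, the asparaginyl endopeptidase legumain that processes cathepsins (-1.52), fell. Lgmn measured 111.9 ± 0.2497 CPM (SD, n = 3) in 2D and 38.5 ± 3.92 CPM in 3D with palmitate. Of the 5 cystatins and other protease inhibitors tested, 3 rose and none fell (median 0.40), among them Cst6 (0.94) and Cst3 (0.40). Mannose 6-phosphate sorting delivers hydrolases to the lysosome. It had 5 of 13 genes higher and 3 lower (median 0.098), where 34.5% of all genes tested rose and 33.9% fell. Its receptor gene Igf2r measured 772 ± 68.9 CPM in 3D with palmitate and 284 ± 26.0 CPM in 2D (SD, n = 3), a log2 fold change of 1.44, and the adaptor gene Ap1g1 rose by 0.49, whereas the adaptors Gga2 and Gga3 fell by 0.62 and 0.59 on the log2 scale.

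Of 18 other V-ATPase genes tested, 6 rose (33.3%) and 5 fell (27.8%), with a median log2 fold change of 0.050. These shares lie near those of all genes tested, of which 34.5% rose and 33.9% fell. The membrane subunits Atp6v0a1 (1.15) and Atp6v0a2 (0.96) rose, and Atp6v1c2 (-2.59), at 3.33 CPM in 2D, and Atp6v1g1 (-0.58) fell. Atp6v0c, which encodes the proton-carrying ring subunit that every cell uses, was listed at 0 counts in all 9 libraries, and no level can be given for it. It was singled out after its values were seen. In lysosomal nutrient sensing, 9 of 22 genes rose (40.9%) and 6 fell (27.3%), also near the shares of all genes tested (median 0.074). Tsc2 (0.85) and Rptor (0.78), regulators of mTORC1, were among those higher. The GTPase gene Rraga (-0.48) and the E-box factor gene Usf1 (-0.38) were among those lower.

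Further autophagy genes rose more often than they fell, except in conjugation. Of all genes tested, 34.5% rose and 33.9% fell. Among 15 other initiation genes, 10 rose and 1 fell (median log2 fold change 0.32). Zfyve1, which marks the omegasome (1.07), and Atg13, the ULK1 partner (0.83), rose, and Ambra1, a BECN1 regulator (-0.24), fell. Of 9 other conjugation and ATG8 genes, 2 rose and 3 fell (median 0.093), with Atg12 at 0.78 and the protease gene Atg4b at 0.21 among the former and Atg4c at -0.42 and the E2-like Atg3 at -0.31 among the latter. Of 17 receptor genes, 8 rose and 2 fell (median 0.22). Wdfy3 (1.02) and the ER-phagy receptor gene Ccpg1 (1.10) rose, and both genes that fell encode mitophagy receptors, Bnip3 (-0.85) and Bnip3l (-0.24). The list of autophagosome fusion and endosome genes had 12 of 15 higher and 1 lower (median 0.41), with the SNARE gene Snap29 (0.78) and the tether gene Epg5 (0.84) higher and Vps16 (-0.78) lower.

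**Figure D5:**
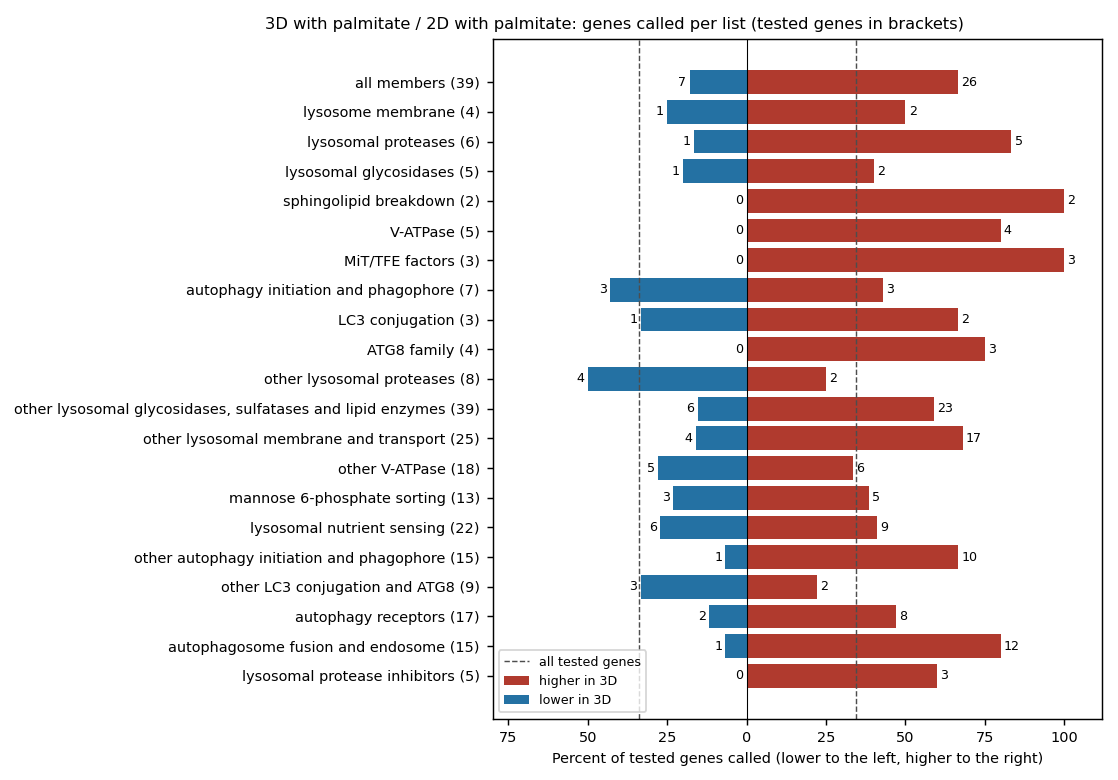
Percent of tested genes called in 3D against 2D with palmitate (x axis, lower to the left and higher to the right) for each role group and pathway list, with the number of genes beside each bar; dashed lines mark all genes tested, 34.5% higher and 33.9% lower. The 39 genes stand at 26 higher and 7 lower, and the list of autophagosome fusion and endosome genes at 12 higher and 1 lower of 15.

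With palmitate in 3D, 2 of these 186 genes were called, Lgmn higher and Atp6v0a4 lower, where 1.38% of all genes tested rose and 0.811% fell. Lgmn measured 41.0, 40.5 and 34.0 CPM with palmitate and 29.3, 31.5 and 32.0 CPM without it (log2 fold change 0.34, adjusted p = 0.0388, edgeR). The groups did not overlap. Atp6v0a4, a V-ATPase subunit gene best known from kidney, measured 1.03, 1.37 and 1.23 CPM with palmitate and 3.07, 2.46 and 1.79 CPM without it (log2 fold change -1.07, adjusted p = 0.0472). These levels rest on 8 to 65 counts per library in 3D. Neither call held with only the 2 groups compared or with the Rn45s share as a covariate, where 0 of the 186 genes were called. Lgmn also lost its call with library size scaling and when replicate 1, 2 or 3 of the 3D cultures without palmitate or replicate 1 or 2 of those with it was omitted, each of which left 0 genes higher. Atp6v0a4, which drops out when at least 10 counts are required in every library, lost its call when replicate 1 or 2 of either 3D group was omitted, each of which left 0 genes lower. Without replicate 3 of the 3D cultures with palmitate, 14 of the 186 genes were higher and 8 lower. Of all 12787 genes tested in that fit, 1095 were higher and 806 lower.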

How the data were processed

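RNA-seq libraries of 4T1 cells (3 conditions, 3 libraries each) were analysed. The authors prepared stranded mRNA libraries, trimmed the single-end reads of 50 bp in fastq-mcf, checked quality in FastQC 0.11.9, aligned the reads to GRCm38 (mm10) with HISAT2 2.1.0 and deposited raw counts per gene from HTSeq-count, without normalization. The annotation release and the strand setting are not given in the sources used here.

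Counts were fitted in R 4.3.3 with edgeR 4.0.16 (filterByExpr with the 3 conditions as groups, TMM scaling, quasi-likelihood F test on all 9 libraries with condition as the only term). P-values were adjusted by Benjamini-Hochberg over the 12575 genes tested, and genes were called at an adjusted p under 0.05. Levels are CPM from TMM-scaled library sizes, and levels per kilobase divide these by the union exon length of GENCODE M21. DESeq2 1.42.0, RLE and library size scaling, other filters, GC and length offsets, the Rn45s share, a replicate block and leaving out each library were tried as alternatives. Library totals from 6595514 to 31177756 limit the precision for genes with few counts. Libraries of the same group were also compared in pairs by a chi-square per gene. It ran from 16.4 to 19.7 in 3D with palmitate, 3.90 to 9.30 in 2D and 4.85 to 7.37 in 3D without palmitate. The fit used 1 estimate of the spread per gene for all groups, which may be too small for 3D with palmitate.

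The members and lists were chosen with earlier results of these data known. Values per library were planned for Tfeb, Tfe3 and Mitf, for genes called with palmitate and for genes called in 3D against 2D with an absolute log2 fold change of at least 0.8. Those of Cd63, Wipi1, Lgmn and Atp6v0a4 were added after their values were seen. From each further list, up to 2 genes higher and 2 lower with the smallest p were named. No sequence was read from a genome: promoter stretches came from a RefSeq table (GRCm38.p6), which had windows for 31 of 39 genes.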

Additional observations from a re-analysis of the deposited data

How the results depend on the processing

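The calls of 3D against 2D depended little on the processing. Across 9 other settings, 29 to 33 of the 39 genes were called, and 28 to 33 (22 to 27 higher, 5 to 7 lower) when 1 library was left out. Of the further genes, 121 to 138 were called (90 to 102 higher, 31 to 40 lower) when 1 library was left out. Requiring an absolute log2 fold change of 0.5 left 17 of the 39 genes (15 higher, 2 lower) and 61 further genes (47 higher, 14 lower). The share of all genes tested at this threshold is likewise not given. Tfe3 turned to -0.11 with the GC content and length trend removed. The cause was not tested.

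The palmitate calls were less stable. Of the 39 genes, 0 were called with library size scaling only, with the 2 compared groups alone, with the Rn45s share as a covariate and with the minimum fold change, and 0 to 5 (0 to 4 higher, 0 to 1 lower) when 1 library was left out. Of the further genes, 2 of which were called as reported, the numbers were 1 with library size scaling (0 higher), 4 without a filter on low counts (3 higher), 1 with at least 10 counts in every library (0 lower), 8 with the GC and length trend removed (5 higher, 3 lower), 1 with the minimum fold change (0 higher), 0 with the 2 groups alone and with the Rn45s covariate, and 0 to 22 (0 to 14 higher, 0 to 8 lower) when 1 library was left out. The highest counts came without replicate 3 of the 3D cultures with palmitate, the smallest library, where 14.9% of all genes tested were called. The cause was not tested.

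Equal replicate numbers did not stand out in the correlations between libraries, which with 3 libraries per group cannot exclude pairing. Over all genes tested, deviations from the group means correlated at -0.238 to 0.145 for equal numbers (9 pairs, 1 over 0.1) and at -0.173 to 0.280 for unequal ones. Over the 39 genes, the correlations ran from -0.597 to 0.530 for equal numbers and from -0.595 to 0.678 for unequal ones. With a replicate block, 31 of the 39 genes were called in 3D against 2D (25 higher, 6 lower), and 0 of them and 0 further genes with palmitate.

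Genes with few counts, such as Tfeb with 37 in the smallest library, allow only large differences to be seen.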
